A study of Mus musculus with 6 samples.

Results

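The genes of 9 secreted messengers were followed in splenic CD8+ T cells: Ifng, Tnf and Ltb, the chemokine genes Ccl3, Ccl4, Ccl5 and Xcl1, and the regulatory cytokine genes Tgfb1 and Il16. They were chosen by name as a group of effector cytokines and chemokines, and all 9 were found among the 28773 gene IDs that each library lists. RNA was sequenced from CD8+ T cells of mouse spleens on day 35, to ask how blocking glycolysis after local tumor ablation changes these cells. The 3 MWA+PBS libraries (replicates 1 to 3) came from tumor-bearing mice that received microwave ablation (MWA) and the PBS vehicle. The 3 MWA+2DG libraries (replicates 4 to 6) came from tumor-bearing mice that received the same ablation and 2-deoxy-D-glucose (2DG), a glucose analogue that hampers glycolysis, injected repeatedly after ablation and stopped before the spleens were taken. Both groups therefore had a tumor and an ablation, and no library from an untreated mouse is compared here. The study used female mice and several transplanted tumor lines. The labels do not say which tumor line, strain or age belongs to these libraries, and the cells were taken from spleen with an isolation kit. The study describes the cells as taken from mice of each group, but the labels tie no library to an animal of its own, and each p measures the spread between these samples.

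CD8+ T cells act on other cells by direct killing and by secreting cytokines. IFN-γ induces antigen presentation genes, and TNF activates NF-κB, while lymphotoxin β, the product of Ltb, pairs with lymphotoxin α on the cell surface and binds the lymphotoxin β receptor. CCL3, CCL4 and CCL5 attract T cells and myeloid cells, XCL1 attracts cross-presenting dendritic cells that carry XCR1, TGF-β1 is released in a latent complex and restrains T cells once freed from it, and IL-16 is cut from a precursor and binds CD4.

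The mRNAs of several of these cytokines carry AU-rich elements in the 3′ UTR, which bind decay factors such as the product of Zfp36. In the GENCODE M21 transcripts the pentamer ATTTA, searched on the transcript strand with overlaps counted, occurred 8 times in the 3′ UTR of Tnf, 6 times in Ifng, 5 times in Ccl3, 2 times in Ccl4, and 1 time in each of Xcl1 and Tgfb1. Ltb, Ccl5 and Il16 held 0. At least 2 pentamers were present in 4 of 9 members (44.4%), against 22.8% of the 7100 listed genes with a 3′ UTR of 135 to 1064 bases, the members' own range. The longer element TTATTTATT occurred in 1 member, Tnf, 5 times, and in 3.42% of those 7100 genes. The windows of 30 bases around the densest pentamers are shown for the 3 members with the most, with ATTTA in capitals, because this is a feature that the choice of genes did not use.
Tnf: attATTTAttATTTATTTAttATTTATTTA
Ifng: aacctATTTAttaatATTTAaaactATTTA
Ccl3: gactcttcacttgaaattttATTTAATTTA
The 3 members without a pentamer were higher in MWA+2DG, although Ccl5 and Il16 lost the call with T lineage scaling, described below. Those with 1 pentamer went opposite ways, Xcl1 higher and Tgfb1 lower, and of the 4 with at least 2, Ccl3 was lower and Ifng, Tnf and Ccl4 were not called. With 9 genes this is a description of these genes only.

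Promoters of 7 members were in the RefSeq table (GRCm38.p6, 250 bases before the start are used here); Ccl4 and Ccl5 had no entry. Both strands were searched for NF-κB (GGGA and TTCC with any 2 bases between them), AP-1 (TGANTCA), NFAT (TGGAAA), T-box (AGGTGTGA) and the interferon element GAS (TTCNNNGAA), which occurred in 1.21%, 6.75%, 18.6%, 1.12% and 7.02% of 32841 promoters. Ltb held 1 NF-κB match, 87 bases before the start, and 1 GAS match, 172 bases before it. Il16 had 3 listed starts, and the third held 2 overlapping NF-κB matches, the first 49 bases before the start, with 1 on each strand and offset by 1 base. The promoters with an NF-κB match are printed with matches in capitals, followed by those of Xcl1 and Ccl3, the members with the largest increase and the largest decrease, which held 0 matches to the 5 motifs.
Ltb, chr17:35194257-35194506, plus strand: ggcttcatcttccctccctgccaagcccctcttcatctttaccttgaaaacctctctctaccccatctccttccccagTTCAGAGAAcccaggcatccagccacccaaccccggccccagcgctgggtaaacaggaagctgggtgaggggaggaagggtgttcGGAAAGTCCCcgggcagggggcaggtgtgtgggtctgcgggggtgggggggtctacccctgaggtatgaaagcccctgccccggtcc
Il16, chr7:83655496-83655745, minus strand: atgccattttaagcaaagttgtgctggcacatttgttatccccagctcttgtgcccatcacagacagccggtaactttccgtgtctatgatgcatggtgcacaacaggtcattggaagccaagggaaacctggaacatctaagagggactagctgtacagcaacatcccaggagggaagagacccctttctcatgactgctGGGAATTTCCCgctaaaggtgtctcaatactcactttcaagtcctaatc
Xcl1, chr1:164935523-164935772, minus strand: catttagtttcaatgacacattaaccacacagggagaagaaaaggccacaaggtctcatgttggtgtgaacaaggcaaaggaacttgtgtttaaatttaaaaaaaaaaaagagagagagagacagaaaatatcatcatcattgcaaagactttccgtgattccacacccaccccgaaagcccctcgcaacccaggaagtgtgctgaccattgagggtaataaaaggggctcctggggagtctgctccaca
Ccl3, chr11:83649379-83649628, minus strand: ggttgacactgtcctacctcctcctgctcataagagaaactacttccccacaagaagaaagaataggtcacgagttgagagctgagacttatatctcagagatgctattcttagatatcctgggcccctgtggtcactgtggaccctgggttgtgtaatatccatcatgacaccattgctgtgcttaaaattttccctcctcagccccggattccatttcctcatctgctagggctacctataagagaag
Of the other members, Ifng held 1 GAS match and Tnf 1 NFAT match, the first start of Il16 held 1 AP-1 and 1 NFAT match, and Tgfb1 held 0 of any.

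Levels are FPKM, in which fragments are scaled for the length of the transcript and for the library total, so they can be compared between genes. Each library totalled between 291803 and 313257 FPKM, and the files hold no read counts, so the depth is unknown. Summed FPKM of 5 CD8 identity genes (Cd8a, Cd8b1, Cd3d, Cd3e and Cd3g) was 757.7 to 791.1 in MWA+PBS against 1115 to 1159 in MWA+2DG, so the labelled cell type was present in every library. Markers of other cells were present too. The neutrophil sum was 339.2 to 368.0 in MWA+PBS against 1645 to 1826 in MWA+2DG, the monocyte and macrophage sum was 1031 to 1101 and 344.1 to 381.1, and the 20 heat shock and immediate early genes summed to 1926 to 2006 and 670.1 to 688.3. No list had a marker at 0 in all 6 libraries. In bulk samples fewer cells of a type and less RNA per cell cannot be told apart.

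**Figure D1:**
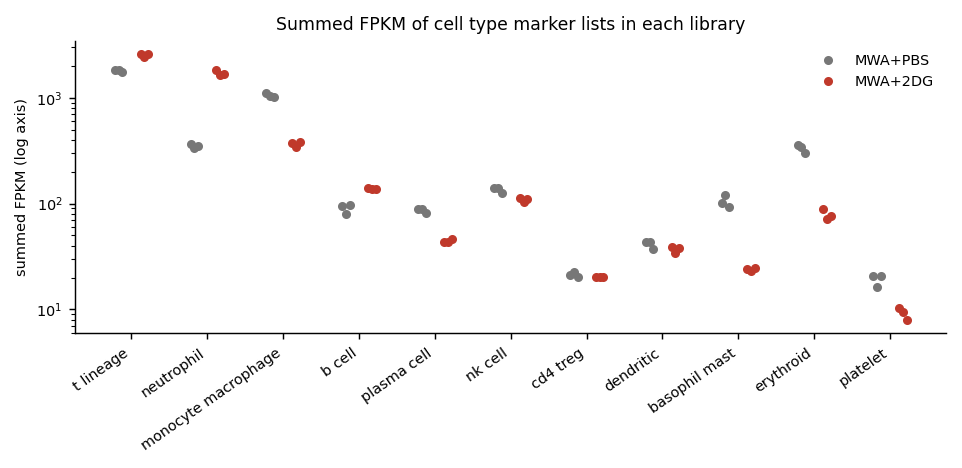
Summed FPKM (vertical log axis) of marker lists for T cells and other cell types, with 1 point per library, grey for MWA+PBS and red for MWA+2DG. Neutrophil and T lineage sums were higher and macrophage, basophil, erythroid and platelet sums lower in all 3 MWA+2DG libraries than in any MWA+PBS library.

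Of the 9 members, 4 were higher in MWA+2DG (Ltb, Ccl5, Xcl1 and Il16), 2 were lower (Ccl3 and Tgfb1), and Ifng, Tnf and Ccl4 did not pass the test. The test was limma on log2(FPKM + 1) with a Benjamini-Hochberg adjusted p under 0.05 over 12444 genes with a mean of at least 1 FPKM, a filter that all 9 passed. The same 6 members passed the threshold of the study's methods, an unadjusted P under 0.05 and a change of more than 0.25 on the log2 scale. Calls were common: 39.4% of all tested genes were called, 22.3% higher and 17.1% lower, and 38.2% passed the study's threshold, 21.6% higher and 16.6% lower. Without MWA+PBS replicate 2, which stood apart for several members, 6 members were higher and 2 lower. The groups did not overlap for the 6 called members, against 52.1% of all tested genes. With 9 genes, 6 called is not a result about the group as such, and the members are described singly. The log2(FPKM + 1) scale understates changes of low genes.

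**Figure D2:**
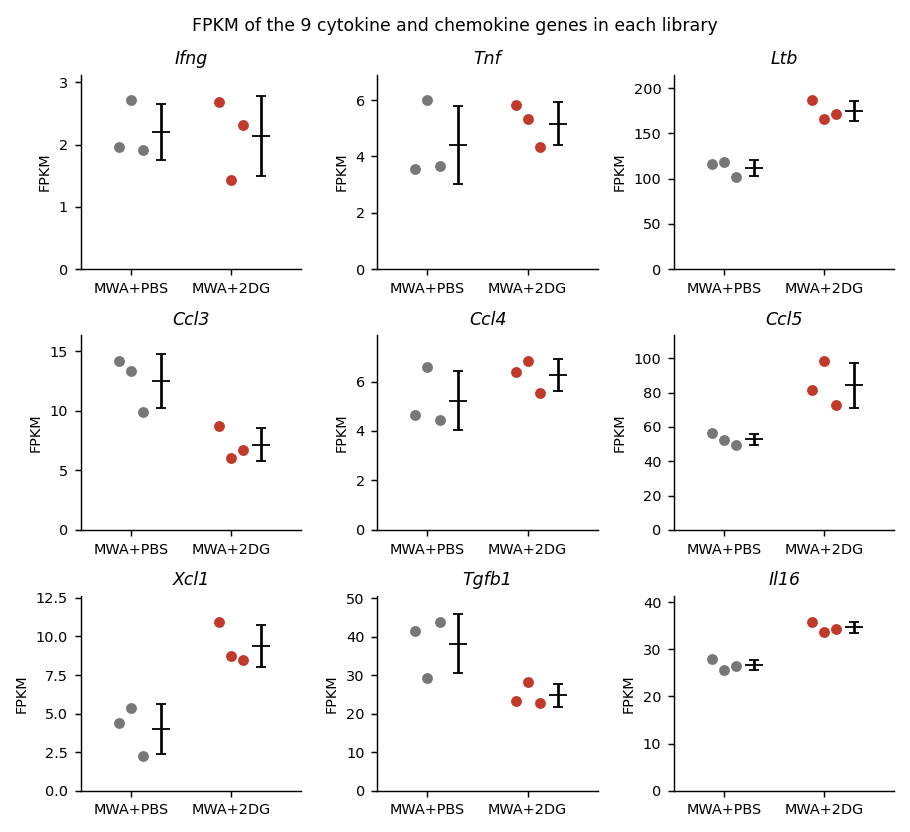
FPKM of each member (vertical axes from 0, scaled per gene) in the 3 MWA+PBS libraries (grey) and 3 MWA+2DG libraries (red), with the mean and SD in black. Ltb, Ccl5, Xcl1 and Il16 lie higher and Ccl3 and Tgfb1 lower in all MWA+2DG libraries, and the groups overlap for Ifng, Tnf and Ccl4.

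Ltb was the most abundant member in every library. Ltb (ENSMUSG00000024399) was 116.0, 118.1 and 101.9 FPKM in MWA+PBS and 186.9, 166.0 and 171.3 in MWA+2DG. Every MWA+2DG library was above every MWA+PBS library, by at least 47.9 FPKM. The means were 112 ± 8.84 and 174.8 ± 10.9 FPKM (SD, n = 3 each), a log2 fold change of 0.64 ± 0.08 (SE) with an adjusted p of 0.000562 (limma, Benjamini-Hochberg). B cells also express Ltb, and their marker sum was 79.5 to 97.3 FPKM in MWA+PBS against 136.1 to 141.4 in MWA+2DG; its part in the Ltb difference was not tested. A microRNA gene, Mir6973a, lies inside Ltb on the same strand, and its listed value of 18.1 to 24.2 FPKM in MWA+PBS against 39.0 to 47.7 in MWA+2DG cannot be told apart from reads of Ltb.

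Tnf lies next to Ltb on chromosome 17, between Ltb and Lta, and did not pass the test. Tnf (ENSMUSG00000024401) was 3.55, 6.01 and 3.65 FPKM in MWA+PBS and 5.84, 5.34 and 4.32 in MWA+2DG. MWA+PBS replicate 2 held the highest value of all 6, and the groups overlapped. The means were 4.40 ± 1.39 and 5.17 ± 0.775 FPKM (SD, n = 3 each), a log2 fold change of 0.21 with a 95% interval from -0.20 to 0.63 and an adjusted p of 0.378 (limma, Benjamini-Hochberg). Without MWA+PBS replicate 2 the log2 fold change was 0.42 with an adjusted p of 0.0301 (limma, Benjamini-Hochberg), so on the unscaled values the call depended on that library. With T lineage scaling, described below, the log2 fold change over all libraries was -0.14 with an adjusted p of 0.483 (limma, Benjamini-Hochberg). Lta, which codes for lymphotoxin α, rose from 2.13 ± 0.186 to 4.33 ± 0.531 FPKM (log2 fold change 0.76 ± 0.10 SE). Relative to Tnf in the same library, Lta was 0.659, 0.346 and 0.543 in MWA+PBS and 0.796, 0.697 and 1.07 in MWA+2DG, groups that did not overlap (two-sided exact permutation p = 0.1, the smallest that 3 against 3 allows). The ratio of Ltb to Tnf was 19.6 to 32.7 in MWA+PBS against 31.1 to 39.7 in MWA+2DG, and these ranges overlapped (exact permutation p = 0.3).

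Ifng (ENSMUSG00000055170), the gene of the cytokine that defines type 1 responses, was the lowest member on average. It was 1.96, 2.72 and 1.92 FPKM in MWA+PBS and 2.68, 1.43 and 2.31 in MWA+2DG. MWA+PBS replicate 2 was the highest library and MWA+2DG replicate 5 the lowest, and the groups overlapped. The means were 2.20 ± 0.451 and 2.14 ± 0.642 FPKM (SD, n = 3 each), a log2 fold change of -0.04 with a 95% interval from -0.44 to 0.36 and an adjusted p of 0.875 (limma, Benjamini-Hochberg). Its sign turned without MWA+PBS replicate 2 (0.07) or without MWA+2DG replicate 5 (0.13).

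The 4 chemokine genes went separate ways, and Ccl5 and Xcl1 were higher. Ccl5 (ENSMUSG00000035042) was 56.3, 52.4 and 49.5 FPKM in MWA+PBS and 81.5, 98.6 and 72.8 in MWA+2DG. The groups were 16.5 FPKM apart at their nearest, and MWA+2DG replicate 5 was the highest. The log2 fold change was 0.66 ± 0.11 (SE) with an adjusted p of 0.00275 (limma, Benjamini-Hochberg).

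Xcl1 (ENSMUSG00000026573) had the largest increase of the 9. It was 4.37, 5.37 and 2.23 FPKM in MWA+PBS and 10.96, 8.75 and 8.49 in MWA+2DG. MWA+PBS replicate 3 was the lowest library, and the groups were 3.12 FPKM apart. The means, 3.99 and 9.40 FPKM, stood in a ratio of 2.36, and the log2 fold change was 1.11 ± 0.24 (SE) with an adjusted p of 0.00831 (limma, Benjamini-Hochberg). Of all tested genes, 99.1% had a lower log2 fold change. NK cells also make Xcl1 and Ccl5, and the NK marker sum was 126.7 to 140.3 FPKM in MWA+PBS against 103.8 to 112.2 in MWA+2DG. Of its 7 tested genes, 2 were higher and 3 lower (median log2 fold change -0.15), and its part in the Xcl1 and Ccl5 differences was not tested.

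Ccl3 and Ccl4 are neighbours on chromosome 11 and are often induced together. Ccl3 fell and Ccl4 did not pass the test. Ccl3 (ENSMUSG00000000982) was 14.2, 13.3 and 9.92 FPKM in MWA+PBS and 8.74, 6.08 and 6.70 in MWA+2DG. The groups did not overlap, but the gap between MWA+PBS replicate 3 and MWA+2DG replicate 4 was 1.18 FPKM. The log2 fold change was -0.72 ± 0.16 (SE) with an adjusted p of 0.00893 (limma, Benjamini-Hochberg). Macrophages and basophils express Ccl3 too, and the basophil and mast cell sum was 93.0 to 120.7 FPKM in MWA+PBS against 23.3 to 24.8 in MWA+2DG, in the same direction as the macrophage sum above; their part in the Ccl3 difference was not tested.

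Ccl4 (ENSMUSG00000018930) was 4.65, 6.60 and 4.44 FPKM in MWA+PBS and 6.38, 6.84 and 5.55 in MWA+2DG. MWA+PBS replicate 2 lay inside the MWA+2DG range, so the groups overlapped. The log2 fold change was 0.23 with a 95% interval from -0.09 to 0.55 and an adjusted p of 0.215 (limma, Benjamini-Hochberg), and without MWA+PBS replicate 2 it was 0.38 with an adjusted p of 0.0177 (limma, Benjamini-Hochberg). Taken within a library, Ccl3 was 3.06, 2.02 and 2.23 times Ccl4 in MWA+PBS and 1.37, 0.889 and 1.21 times Ccl4 in MWA+2DG. The ratio was lower in all 3 MWA+2DG libraries, with a mean log2 difference of -1.08 (two-sided exact permutation p = 0.1, the smallest possible). This ratio does not depend on how the libraries are scaled.

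Of the regulatory genes, Tgfb1 was lower and Il16 higher. Tgfb1 (ENSMUSG00000002603) was 41.4, 29.4 and 43.9 FPKM in MWA+PBS and 23.4, 28.1 and 22.7 in MWA+2DG. MWA+PBS replicate 2 was far below the other MWA+PBS libraries and only 1.28 FPKM above MWA+2DG replicate 5. The log2 fold change was -0.59 ± 0.15 (SE) with an adjusted p of 0.0179 (limma, Benjamini-Hochberg). The call was lost when MWA+PBS replicate 1 or 3 or MWA+2DG replicate 4 or 6 was left out, with adjusted p between 0.051 and 0.0598 (limma, Benjamini-Hochberg). Macrophages and platelets hold Tgfb1 mRNA, and the platelet sum was 16.4 to 20.9 FPKM in MWA+PBS against 7.92 to 10.3 in MWA+2DG; its part was not tested.

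Il16 (ENSMUSG00000001741) had the smallest change among the 6 called members. It was 27.9, 25.7 and 26.4 FPKM in MWA+PBS and 35.9, 33.7 and 34.4 in MWA+2DG. The groups were 5.82 FPKM apart, and the values within each group lay close together. The log2 fold change was 0.37 ± 0.05 (SE) with an adjusted p of 0.00162 (limma, Benjamini-Hochberg). Stard5 overlaps Il16 on the opposite strand and was 6.37 to 6.88 FPKM in MWA+PBS against 3.85 to 4.08 in MWA+2DG, the other direction, and whether strand entered the counting is not stated.

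**Figure D3:**
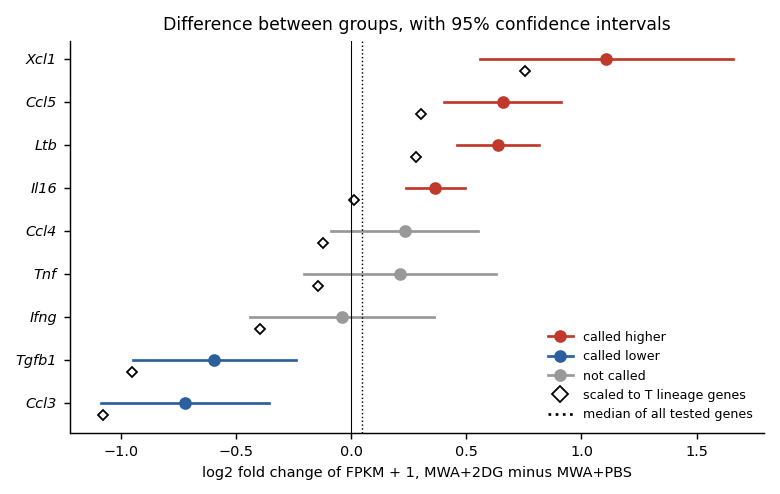
Log2 fold change of FPKM + 1, MWA+2DG minus MWA+PBS (horizontal axis), for each member with its 95% confidence interval. Filled points are the limma fit, open diamonds the same after scaling each library to T lineage genes, and the dotted line the median of all tested genes (0.05); scaling moves every member to the left.

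In MWA+PBS the order of the members by mean FPKM ran Ltb, Ccl5, Tgfb1, Il16, Ccl3, Ccl4, Tnf, Xcl1 and Ifng, the ranges of Ccl4, Tnf and Xcl1 overlapped, and so did those of Xcl1 and Ifng. In MWA+2DG, Il16 stood above Tgfb1 and Xcl1 stood above Ccl3, Ccl4 and Tnf, with overlapping ranges for Xcl1 and Ccl3, for Ccl3 and Ccl4, and for Ccl4 and Tnf. Ltb exceeded 98.3% and Ccl5 96.2% of all tested genes in mean FPKM, whereas Ifng exceeded 18.2%.

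Cd3e, a chain of the T cell receptor complex, rose from 97.3 ± 7.98 to 127 ± 13.2 FPKM (log2 fold change 0.38). Cd8a itself rose from 231.5 ± 6.96 to 366.4 ± 9.48 FPKM (0.66), so each member was also taken as a percentage of Cd8a in its own library. Ltb was 50.6, 49.4 and 45.1% of Cd8a in MWA+PBS and 51.5, 46.3 and 45.4% in MWA+2DG, and Ccl5 was 21.9 to 24.5% and 19.3 to 27.5% (exact permutation p = 1 for each). For both genes the 2 groups overlapped on this measure. Xcl1 was 0.988 to 2.24% of Cd8a in MWA+PBS against 2.25 to 3.02% in MWA+2DG, higher in all 3, although the nearest libraries of the 2 groups almost met. Ccl3 was 4.39 to 6.19% and 1.69 to 2.41%, and Tgfb1 was 12.3 to 19.5% and 6.02 to 7.84%, both lower in all 3. Ifng was 0.850 to 1.14% in MWA+PBS against 0.398 to 0.738% in MWA+2DG, and Il16 10.7 to 12.1% and 9.11 to 9.88%, likewise without overlap. Ccl4 was 1.97 to 2.76% and 1.47 to 1.91%. The exact permutation p was 0.1, the smallest possible, for Xcl1, Ccl3, Tgfb1, Ifng, Il16 and Ccl4, and 0.2 for Tnf. Cd8a rose by 0.66 where the median of all tested genes was 0.05, so a gene with an unchanged FPKM comes out lower on this measure. Il16, called higher in FPKM, was lower relative to Cd8a. The share of all tested genes that do not overlap on this measure was not computed, so the separations are descriptions only. These ratios were chosen after the data were seen.

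**Figure D4:**
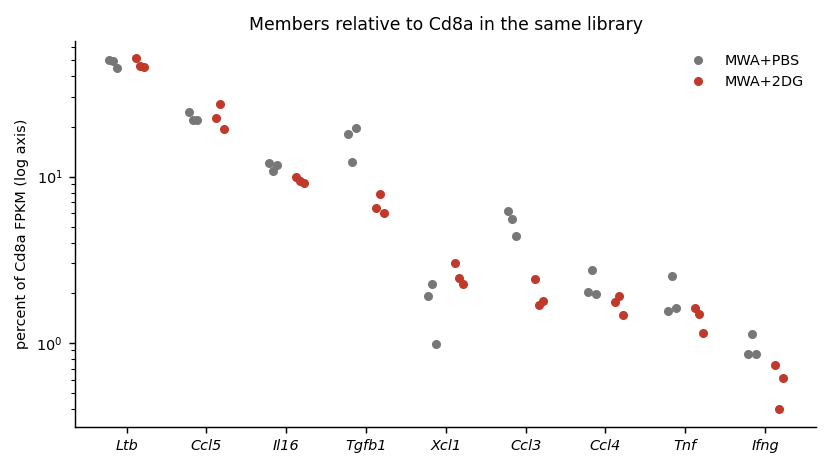
FPKM of each member as a percentage of Cd8a FPKM in the same library (vertical log axis), grey for MWA+PBS and red for MWA+2DG. Ltb, Ccl5 and Tnf overlap between groups. Ccl3, Tgfb1, Ifng, Il16 and Ccl4 are lower and Xcl1 is higher in all 3 MWA+2DG libraries, in which Cd8a itself was higher.

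Scaling each library to 18 T lineage genes, of which 15 had risen and 1 fallen, shifted the median of all tested genes from 0.05 to -0.31. Under it 4.96% of all tested genes were called higher and 59% lower, so a count of lower genes in a list under this scaling is to be read against that share. Ltb (0.28) and Xcl1 (0.75) were still called higher and Ccl3 (-1.08) and Tgfb1 (-0.95) lower, whereas Ccl5 (0.30, adjusted p = 0.0517) and Il16 (0.01, adjusted p = 0.872) were not called by limma with Benjamini-Hochberg adjustment, and Tnf (-0.14) and Ccl4 (-0.12) turned sign without a call. Ifng moved from -0.04 to -0.40 with an adjusted p of 0.0516 (limma, Benjamini-Hochberg), and 3 members in place of 2 were lower by the threshold of the study.

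The receptors of the 9 products were examined next, of which 13 of 14 were tested, with 3 higher and 6 lower, against 22.3% and 17.1% of all tested genes (median log2 fold change -0.03, all tested genes 0.05). Ccr1, a receptor for CCL3 and CCL5, rose from 1.34 to 2.46 FPKM (log2 fold change 0.56), and the part of the higher neutrophil sum in this was not tested. Ccr3, an eosinophil and basophil receptor for CCL5, fell from 21.3 ± 0.667 to 3.76 ± 0.145 FPKM (-2.23), and the part of the lower basophil sum in this was not tested. Ltbr, the receptor for membrane lymphotoxin, which is characteristic of myeloid and stromal cells, fell from 5.01 to 1.33 FPKM (-1.36). Tnfrsf1a fell (-0.54) while Tnfrsf1b, at 19.8 and 21.0 FPKM, did not pass the test. Both chains of the IFN-γ receptor fell, Ifngr1 from 74.4 to 64.2 FPKM (-0.21) and Ifngr2 from 6.72 to 4.42 FPKM (-0.51). Of the TGF-β receptors, Tgfbr3 rose (0.33), and Tgfbr1 and Tgfbr2 did not pass. Of the IL-16 receptors, Cd4 fell from 2.75 to 1.66 FPKM (-0.50) and Cd9 did not pass. Xcr1 was 0.51 and 0.37 FPKM, below the filter. With T lineage scaling the counts were 1 higher and 9 lower of 13, where 59% of all tested genes were lower.

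**Figure D5:**
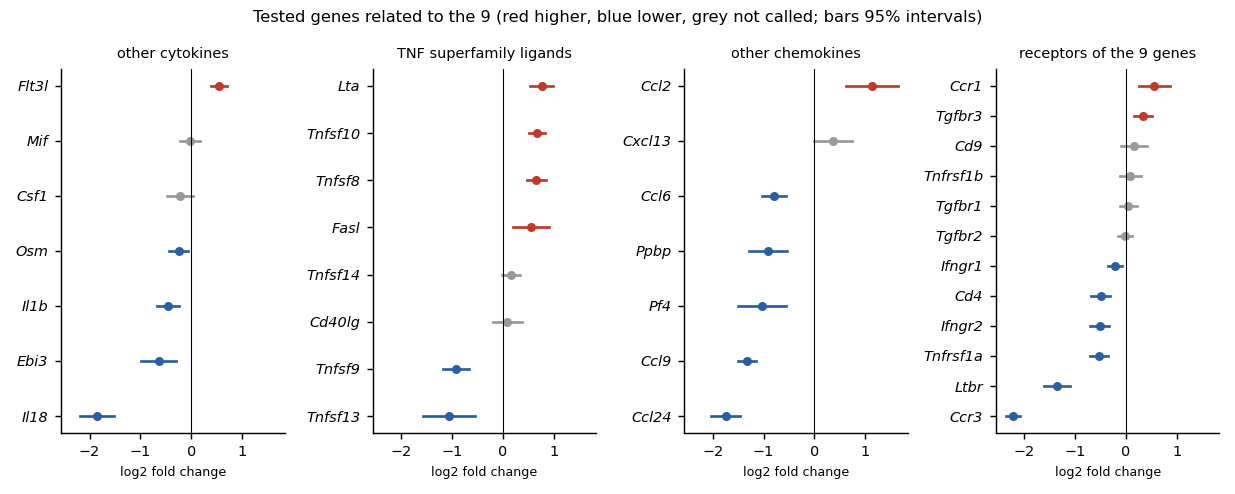
Log2 fold change of FPKM + 1 with 95% confidence intervals (horizontal axes, MWA+2DG minus MWA+PBS) for tested genes in 4 related lists, of which some genes are not shown. Lta, Tnfsf8, Tnfsf10, Fasl and Ccl2 are among those higher, and Ccr3, Ltbr, Il18, Ccl9 and Ccl24 among those lower.

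Other ligands were tested by lists, whose counts stand against 22.3% of all tested genes higher and 17.1% lower. Of 8 tested TNF superfamily ligands, 4 were higher and 2 lower (median 0.36). Beside Lta, the death ligand genes Tnfsf10 (7.13 to 12.01 FPKM, 0.68) and Fasl (1.29 to 2.37 FPKM, 0.56) and the CD30 ligand gene Tnfsf8 (22.1 to 35.3 FPKM, 0.66) rose, and the costimulatory 4-1BB ligand gene Tnfsf9 (-0.92) and the APRIL gene Tnfsf13 (-1.06) fell. Of 7 tested other chemokines, 1 was higher and 5 lower (median -0.91). Ccl2, which recruits monocytes, rose from 0.41 to 2.13 FPKM (1.13), and Ccl24 (-1.75), Ccl9 (-1.33) and the platelet gene Pf4 (-1.03) fell. Of 7 tested other cytokines, 1 was higher and 4 lower (median -0.24): Flt3l, which supports dendritic cells, rose (0.55), and Il18 (-1.85), Ebi3 (-0.64) and Il1b (-0.46), mainly myeloid products, fell. The macrophage sum was lower and the neutrophil sum higher in MWA+2DG, and the part of either in this was not tested. Il2, the growth factor of activated T cells, was at most 0.27 FPKM in any library. With T lineage scaling, where 59% of all tested genes were lower and 4.96% higher, the TNF superfamily counts were 3 higher and 2 lower and those of other cytokines 1 and 6.

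Targets of the members were taken next, again against 22.3% of all tested genes higher and 17.1% lower and a median of 0.05. Of 20 tested IFN-γ target genes, 18 were higher and 1, Irf8, was lower (12.1 to 5.09 FPKM, -1.10), with a median of 0.49. Iigp1 (5.15 to 13.7 FPKM, 1.25) and Gbp6 (1.21) had the largest increases, while Ifng itself was not called. Many of these genes also answer to type I interferon. With T lineage scaling 9 were higher and 2 lower, against 4.96% and 59% of all tested genes. Of 18 TNF and NF-κB targets, 3 were higher, near the share over all genes, and 5 lower (median -0.08): Traf1 (0.59), Nfkbie (0.31) and Birc3 (0.21) rose, and Tnfaip2 (-0.997), Bcl3 (-0.79) and Tnfaip3 (-0.77), which codes for the inhibitor A20, were the largest decreases. With that scaling 1 was higher and 13 of 18 lower, against the same 59% of all tested genes lower. Of 13 TGF-β targets, 2 were higher and 4 lower (median -0.02), with Id3 (0.57) and Skil (0.49) higher and Tgfbi (17.8 to 3.66 FPKM, -2.01), Bhlhe40 (-0.51) and Tgif1 (-0.44) the largest decreases. Macrophages also express Tgfbi, and the part of their lower marker sum in this difference was not tested. With that scaling 0 were higher and 9 of 13 lower, near that share.

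Regulators of these genes were examined against the same shares, 22.3% higher and 17.1% lower. Of 20 transcription factor genes, 5 were higher, near the share over all genes, and 9 lower (median -0.07). Eomes, a T-box factor of effector and memory CD8+ T cells, rose from 22.8 ± 0.337 to 45.7 ± 1.87 FPKM (0.97), Stat4 rose (0.53), Egr3 rose (0.43), and Tbx21, which codes for T-bet, rose from 10.7 to 14.0 FPKM (0.35). The AP-1 genes Jun (76.3 to 7.57 FPKM, -3.18), Fosb (-3.06) and Fos (103 to 15.8 FPKM, -2.63) had the largest decreases, and they are immediate early genes, whose list sum with heat shock genes is given above; its part in the other differences was not tested. With T lineage scaling 2 were higher and 11 of 20 lower, near the 59% of all tested genes. Of 10 genes for AU-rich element binding and decay factors, 1 was higher, Tia1 (0.75), and 2 were lower, Zfp36 (93.8 to 56.3 FPKM, -0.73) and Zfp36l2 (-0.17), with 8 of 10 lower under that scaling, against 59% of all tested genes. Of 10 genes for processing and release, Stxbp2 (0.29) and Unc13d (0.24), which take part in granule release, rose, and Rhbdf2, which carries the TNF-releasing protease to the surface, fell (-0.30). With that scaling 0 were higher and 7 of 10 lower, near the same share. Of 10 cytotoxic effector genes, 7 were higher and 1 lower (median 0.45): Gzmk (3.30 to 8.44 FPKM, 1.14), Gzmm (0.95) and Ctsw (0.57) had the largest increases, Prf1 rose (0.44), and Gzmb fell from 13.1 to 10.4 FPKM (-0.31). With that scaling 4 were higher and 3 of 10 lower, against 4.96% and 59% of all tested genes.

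For each member the 3 tested genes with the nearest profile over the 6 libraries were found by the root mean square difference of log2(FPKM + 1) after centring each gene. Ltb was nearest to the class I genes H2-Q5 (0.025) and H2-T22 (0.034) and to Crtam (0.037), and Il16 to Gm15682 (0.015), Prmt6 (0.019) and Evl (0.022). Tgfb1 was nearest to Runx3 (0.037), Spen (0.048) and Rin3 (0.072). Runx3 was 49.6, 35.9 and 53.7 FPKM in MWA+PBS and 30.1, 36.1 and 28.9 in MWA+2DG, with the same low MWA+PBS replicate 2 as Tgfb1. Ccl5 was nearest to Gm15539, Gm39323 and Gdf11 (0.041 to 0.088), Ccl3 to Ighv11-2, Iglv1 and Hsd3b7 (0.10 to 0.11), Xcl1 to Gm614, Apol7b and Gm28935 (0.12 to 0.14), Ccl4 to Gm6565, Bet1 and Gm14323 (0.073 to 0.078), Tnf to Gm6745, Mir421 and Gm44053 (0.061 to 0.077) and Ifng to Gm7890, Gm13835 and Prelid3b (0.060 to 0.070). With 6 libraries in 2 groups a near profile reflects the group difference and the same libraries standing apart.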

How the data were processed

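Poly(A) RNA of CD8+ T cells from mouse spleens was sequenced in 6 libraries, grouped by their labels. The deposited files hold FPKM per gene, which the authors computed with StringTie and ballgown after mapping with HISAT2 per the methods. The submitters' processing notes name cutadapt 1.9, HISAT2 2.0.4, UMI-tools, StringTie 1.3.4d and the build mm9. The sources used here do not name the annotation release. FPKM depends on the library total and holds no counts, and a search for a common read step in the values found none.

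Symbols came from the GENCODE M21 gene table, which matched 28689 of 28773 IDs. With R 4.3.3, log2(FPKM + 1) was fitted by limma 3.58.1 (lmFit and eBayes, trend on) for 12444 genes with a mean of at least 1 FPKM, with no covariates and MWA+PBS as the reference, by a two-sided test with Benjamini-Hochberg adjustment over all tested genes. It was tested on simulated data. Ratios within a library were compared by exact permutation. Named genes were all 9 members, their receptors, the 3 largest called increases and decreases of each list, 11 further regulators, ligands and effectors, and the 3 nearest profiles. Some genes that this rule names are not reported here, although the counts of the lists include them. The members and lists were chosen with earlier results of these data known. Alternatives were a pseudocount of 0.1, no filter, a mean of at least 5 FPKM, quantile, median ratio and T lineage scaling, a total without abundant gene classes, eBayes without a trend, arrayWeights and leaving out each sample.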

Additional observations from a re-analysis of the deposited data

How the results depend on the processing

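Ltb, Ccl3 and Xcl1 kept their direction and call in all 16 alternatives, with log2 fold changes from 0.28 to 0.68, -1.08 to -0.62 and 0.75 to 1.31. Without a filter Tgfb1 (-0.59) had an adjusted p of 0.0546 (limma), leaving 1 member lower. With a mean of at least 5 FPKM, Ifng and Tnf were not tested, and the adjusted p called 1787 genes higher and 1164 lower, and 1560 and 1002 were called by the study's threshold, of 7313 tested. With T lineage scaling the log2 fold changes were -0.14 for Tnf, -0.12 for Ccl4, 0.30 for Ccl5 and 0.011 for Il16, 2 members were higher, and of all genes 617 were higher and 7345 lower (568 and 6915 by the study's threshold). That scaling moved the share of called genes that were higher from 56.5% to 7.75%. With arrayWeights Ifng was 0.10 and Ccl4 0.31 (adjusted p 0.0337, limma). Leaving out each sample gave -0.17 to 0.13 for Ifng, 0.10 to 0.42 for Tnf, 0.14 to 0.38 for Ccl4 and -0.77 to -0.49 for Tgfb1, with 1 to 2 members lower and 4 to 6 higher, the 6 without MWA+PBS replicate 2. Removing trends on GC content and transcript length, chosen after the data were seen, changed no member's call. Of the list counts, 310 equalled the main count or stayed within 1.5 times of it, 28 were lower and 14 higher. The cause of these changes was not tested, except that fewer genes were tested under the stricter filter. No paired analysis was possible because the groups share no replicate numbers. Depth is unknown, so counting error could not be given, and no batch is labelled, so treatment and any batch that ran along with it cannot be told apart.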
